A study of Mus musculus with 5 samples.

Results

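The genes described here encode the subunits of RNA polymerases I, II and III and the general transcription factors that bring these enzymes to promoters. They were taken by name, as all genes with a probe set of a single symbol that starts with Polr1, Polr2, Polr3, Gtf2 or Gtf3, and the mitochondrial polymerase gene Polrmt was left out. This gave 48 of the 19938 genes on the arrays, of which 27 are polymerase subunit genes and 21 are factor genes. The mean signal over all arrays decided which probe set was kept for a gene that had several. The set of genes was taken up with earlier results of these arrays known, among them that Polr2f and Polr2j rank near the top of the whole table, so the differences below are a description and not independent evidence. Gtf2h2 and Gtf3c2 had no single-symbol probe set and were not analysed here as members.

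Flow cytometry separated pancreatic islet cells by Flattop status, and RNA was taken from 3 Flattop-positive pools and 2 Flattop-negative pools. All donors were untreated C57BL/6 mice aged 8 to 12 weeks, of undetermined sex, and carried 1 modified Flattop allele (FVR/+), so both fractions share the heterozygous genotype. Each pool held cells of 4 to 6 mice, and 1 array was hybridised per pool. The series title names proliferative and mature β-cells, and the comparison asks how the fractions differ.

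RNA polymerase I makes the precursor of the large ribosomal RNAs, polymerase II makes messenger RNA, and polymerase III makes transfer RNA and other short RNAs. The enzymes share a set of small subunits, and polymerases I and III share a further pair, while the large catalytic subunits are specific to each enzyme. Polymerase II is positioned by the TFII factors and polymerase III by the TFIII factors; in islet cells polymerase II transcribes the hormone genes.

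Signals are log2 values made by RMA, a method that corrects background, normalises between arrays and summarises the probes of a set, and differences are Flattop-positive minus Flattop-negative. The arrays were checked by the Flattop gene itself, Cfap126, with 6.07, 6.07 and 6.24 in Flattop-positive pools against 5.52 and 5.44 in Flattop-negative pools, a difference of 0.64 ± 0.18 (SE; limma adjusted p = 0.274). Islet hormone genes were bright in both fractions: Ins2 (insulin) lay at 12.64 to 13.08 in Flattop-positive pools against 12.37 and 13.04 in Flattop-negative pools, and Gcg (glucagon) at 12.81 to 13.17 against 13.06 and 13.39. Of 10 β-cell markers, 7 were higher in Flattop-positive pools at an unadjusted p under 0.05 in limma and 1.5-fold, against 8.08% of all genes. Without overlap 8 were higher, against 13.7% of all genes. Their median difference was 1.23, about the size of the polymerase II and shared subunit medians below. The median signal of these markers was 9.92. Of all genes above a mean signal of 9, 26.9% were higher by the first rule and 39.7% without overlap, with a median difference of 0.55. Among the β-cell markers Glp1r had 1.83 ± 0.34, Slc2a2 1.48 ± 0.20 and Pdx1 1.35 ± 0.21 (SE), while Ins2 and Iapp, which dominate the summed linear signal of 23595 to 28455 in Flattop-positive pools and 18179 and 20012 in Flattop-negative pools, had 0.18 ± 0.28 and 0.095 ± 0.19. Single libraries stood apart. The summed signal of 12 macrophage markers was 340 to 444 in Flattop-positive pools, against 306 in replicate 1 and 1171 in replicate 2 of the Flattop-negative pools. Lyz2 alone gave 682 of the last sum, and without it the sums were 317 to 427 in Flattop-positive pools against 293 and 489 in Flattop-negative pools. The leukocyte gene Ptprc and the macrophage gene Adgre1 lay below the floor on all 5 arrays, C1qc and Cd14 were lower in Flattop-positive pools without overlap, and C1qa was higher by 1.32 ± 0.45 (SE) without overlap. Immediate early and heat shock genes (14) summed to 15592 in Flattop-positive replicate 3 and 15574 in Flattop-negative replicate 2, against 1512 to 3561 on the other 3 arrays. Markers of δ and PP cells (6) summed to 15621 to 23853 in Flattop-positive pools, against 3953 in replicate 1 and 32467 in replicate 2 of the Flattop-negative pools. Those of α cells (6) summed to 12431 to 14839 in Flattop-positive pools against 9658 and 17646 in Flattop-negative pools, of acinar cells (10) to 226 to 304 against 294 and 502, and of endothelial cells (8) to 113 to 117 against 129 and 175. Of the 6 α-cell markers 5 had a difference below 0, as had 11802 of all 19938 genes, with Smarca1 at -1.87 ± 0.24 (SE) without overlap. The other, Ttr, is bright and was 9.69 in Flattop-negative replicate 1, against 12.27 to 12.67 on the other arrays. The part of these differences in the results below was not tested, and in pooled cells fewer cells of a type and less RNA per cell cannot be told apart. The floor was set on each array at the 95th percentile of its 1027 olfactory receptor genes, 4.29 to 4.45 on Flattop-positive and 4.75 and 4.86 on Flattop-negative arrays. The deposited signals were not equal in spread between the groups. Their SD over genes was 1.93, 1.83 and 1.86 on Flattop-positive arrays and 1.65 and 1.63 on Flattop-negative arrays. The part of this in the differences was not tested.

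Polymerase subunit genes lay mostly higher in Flattop-positive cells, with medians of 1.14 for polymerase II subunits and 1.31 for those common to all 3 enzymes; without Flattop-negative replicate 1 these were 0.89 and 0.55. Polr2f, Polr2j, Polr2c and Polr2i were 2.90-fold to 3.48-fold higher, Polr2c on 1 of its 2 probe sets, while the catalytic subunit Polr2a was 1.32-fold higher and the second largest subunit of polymerase I, Polr1b, was nearly level. Polymerase III and TFII genes lay nearer to level, with medians of 0.17 and 0.33, as did the 3 polymerase I genes not shared with polymerase III, with 0.145. The polymerase III and TFII classes had median signals of 6.02 and 6.64, and all genes at 6 to 7 had a median difference of 0.295. No gene passed the test over the whole table: 0 of 48 members had an adjusted p under 0.05 in limma, where the share over all genes was 0.0%. At an unadjusted p under 0.05 there were 15 members, 31.2%, against 13.8% of all genes. Of these, 13 members, 27.1%, also had a 1.5-fold or larger excess in Flattop-positive cells, against 8.08% of all genes, and 0 were at least 1.5-fold lower, against 3.74%. The groups did not overlap for 18 members higher in Flattop-positive cells, 37.5% against 13.7% of all genes, and for 2 members lower, 4.17% against 21.0%. These shares depended on scaling: on repeated quantile normalisation 12 members were higher and 2 lower without overlap, against 13.1% and 12.7% of all genes, on cyclic loess 12 and 3, against 13.2% and 12.3%, and with arrays centred 21 and 1, against 16.1% and 16.1%. The share over all genes also rose with signal. Higher without overlap were 1.26% of all genes below a mean signal of 5, 27.2% at 6 to 7 and 36.8% at 8 to 9.

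**Figure D1:**
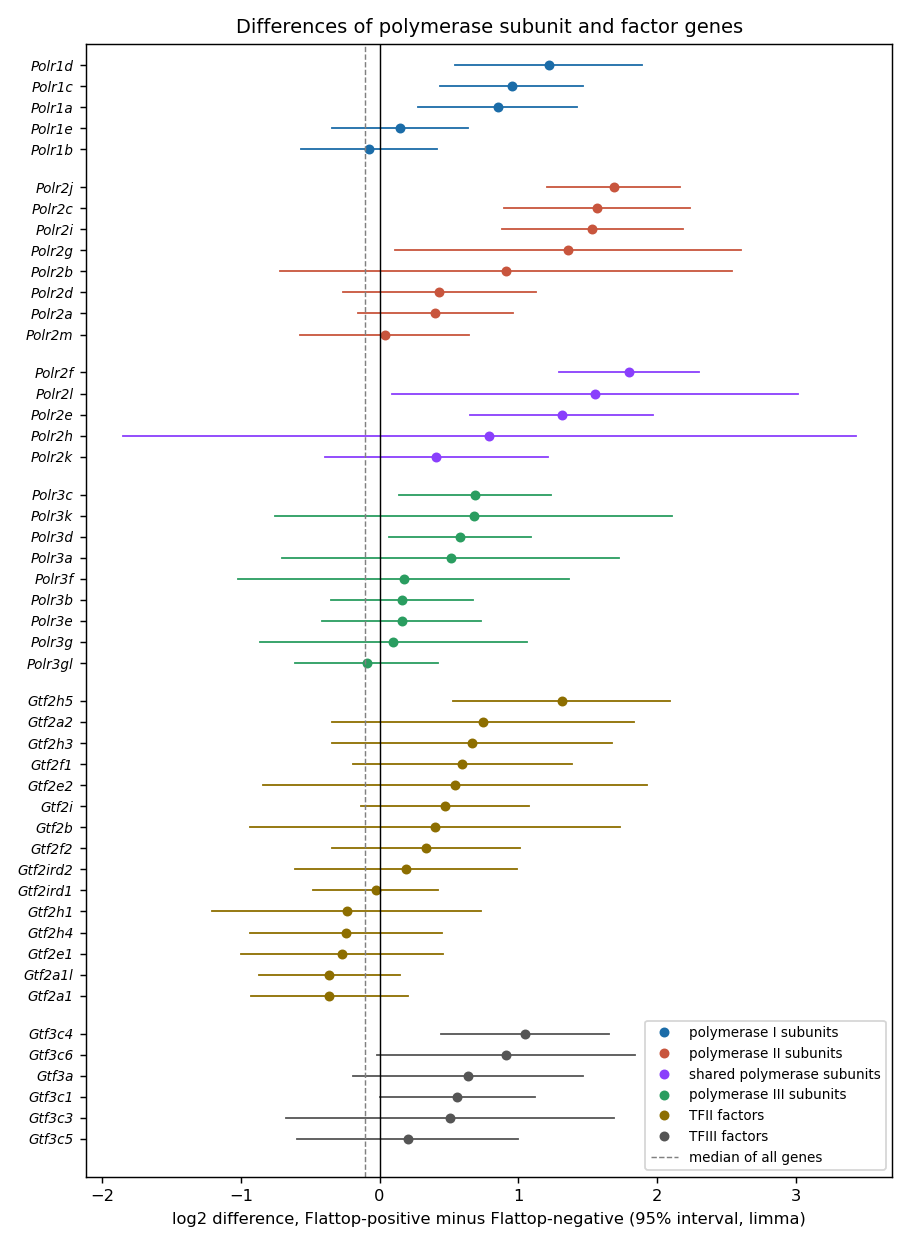
Log2 difference of each of the 48 genes, Flattop-positive minus Flattop-negative, with limma's unadjusted 95% interval, grouped by polymerase and factor class; the dashed line is the median of all genes, -0.10. In the polymerase II and shared classes all 13 points lie to the right of 0, and the TFII class holds 9 above and 6 below.

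The promoters of the 4 members with the smallest p are shown as the sequences upstream of the genes that ranked first here, although for Polr2c the direction rests on 1 of 2 probe sets. Each is the 150 bases before the annotated start, 5′ to 3′, from RefSeq on build GRCm38.p6, plus strand, at chr15:79141175-79141324 for Polr2f, chr5:136116541-136116690 for Polr2j, chr7:30231924-30232073 for Polr2i and chr8:94857300-94857449 for Polr2c. Capitals mark the letters CCGGAAG (the core bound by ETS factors), GGGCGG (the GC box) and CCAAT, or its reverse complement.
Polr2f: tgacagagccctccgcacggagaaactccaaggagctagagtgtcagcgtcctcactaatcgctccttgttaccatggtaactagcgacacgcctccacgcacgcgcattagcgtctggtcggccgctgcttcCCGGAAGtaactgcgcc
Polr2j: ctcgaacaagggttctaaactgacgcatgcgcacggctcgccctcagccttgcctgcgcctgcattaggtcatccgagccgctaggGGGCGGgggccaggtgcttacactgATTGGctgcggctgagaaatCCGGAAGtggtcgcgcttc
Polr2i: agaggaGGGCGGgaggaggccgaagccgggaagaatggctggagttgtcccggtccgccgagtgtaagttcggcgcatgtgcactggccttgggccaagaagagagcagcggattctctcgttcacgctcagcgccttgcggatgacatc
Polr2c: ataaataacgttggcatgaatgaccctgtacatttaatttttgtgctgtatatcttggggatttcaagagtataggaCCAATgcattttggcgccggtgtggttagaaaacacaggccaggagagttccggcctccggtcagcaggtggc

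The Polr2f and Polr2j promoters both hold the ETS core close to the start, its first base 17 and 19 bases upstream. In the full RefSeq window of 300 bases, from 250 before to 50 after the start, 42 of the 48 members had an entry and both strands were searched. The ETS core letters were in 14 of 42 members, 33.3%, against 13.6% of 15614 genes with a window and a signal here. Among the members at least 1.5-fold higher at an unadjusted p under 0.05 that share was 33.3% (4 of 12) and among the others 33.3% (10 of 30). GGGCGG was in 61.9% of members and 52.9% of all genes, CCAAT in 31.0% and 41.7%, the TATA box letters TATAAA in 11.9% and 13.6%, and ATGGCGG, the core bound by YY1, in 7.14% and 6.39%. A match describes the letters in the window and not a bound site.

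Polymerase II subunits had 8 members, all with a difference above 0, as had 40 of the 48 members (83.3%) and 40.8% of all genes. Their median difference was 1.14, against -0.10 over all genes, and 0.685 on cyclic loess. All genes of like signal lay higher than -0.10, with medians of 0.34 at a mean signal of 7 to 8 and 0.45 at 8 to 9. Over these 8 genes the median signal was 8.69, 8.49 and 8.46 in Flattop-positive pools against 7.25 and 6.97 in Flattop-negative pools. Polr2j, the small partner of Polr2c in the dimer on which the enzyme is assembled, had 8.94, 8.81 and 9.04 in Flattop-positive pools against 7.34 and 7.15 in Flattop-negative pools. The gap between the groups was wider than the spread within either, and the difference was 1.69 ± 0.19 (SE; limma adjusted p = 0.198), 3.22-fold. Polr2i, a small zinc-binding subunit that acts in transcript fidelity, was at 8.84, 8.22 and 8.37 in Flattop-positive pools against 7.09 and 6.80 in Flattop-negative pools. Both Flattop-negative pools lay more than 1 log2 unit below all Flattop-positive pools, and the difference was 1.53 ± 0.26 (SE; limma adjusted p = 0.199).

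Polr2c, the larger partner of Polr2j, had 7.54, 7.37 and 7.36 in Flattop-positive pools against 5.50 and 6.22 in Flattop-negative pools on the probe set kept. This difference of 1.57 ± 0.27 (SE; limma adjusted p = 0.199) was not seen on the gene's other probe set. There the values were 6.69, 6.97 and 6.44 in Flattop-positive pools against 6.80 and 6.64 in Flattop-negative pools, a difference of -0.02 ± 0.23 (SE). The mean signals of the probe sets, 6.80 and 6.71, were so close that the rule on the highest mean decided which was kept, and the direction of Polr2c is uncertain. The platform annotation lists the same RefSeq transcript for both.

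The catalytic subunit Polr2a, whose tail carries the marks of initiation and elongation, was at 8.57, 8.76 and 8.56 in Flattop-positive pools against 8.00 and 8.46 in Flattop-negative pools. These groups did not overlap, but Flattop-negative replicate 2 lay close to the lowest Flattop-positive pool, and the difference was 0.40 ± 0.22 (SE; limma adjusted p = 0.462). After cyclic loess, another way to normalise between arrays, it was -0.089. Polr2b, which forms the active site with Polr2a, was at 7.58, 8.25 and 6.86 in Flattop-positive pools against 7.57 and 5.74 in Flattop-negative pools, and only Flattop-negative replicate 2 was low. The groups overlapped, and the difference was 0.91 ± 0.65 (SE; limma adjusted p = 0.540). Against Flattop-negative replicate 1 alone it was -0.007 and against replicate 2 alone 1.83.

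The stalk of polymerase II is made of Polr2d and Polr2g. Polr2g was 9.03, 9.29 and 9.64 in Flattop-positive pools against 7.16 and 8.76 in Flattop-negative pools, without overlap, and the difference of 1.36 ± 0.50 (SE; limma adjusted p = 0.334) was 2.16 against Flattop-negative replicate 1 and 0.56 against replicate 2. Its partner Polr2d had a difference of 0.43 ± 0.28 (SE) with overlapping groups. Polr2m, which encodes a protein that associates with the assembled polymerase and is no core subunit, was level: 8.80, 8.73 and 8.96 in Flattop-positive pools lay between the 9.09 and 8.51 of Flattop-negative pools. Its difference was 0.04 ± 0.24 (SE; limma adjusted p = 0.954), with a 95% interval of -0.57 to 0.65, and its sign turned under 5 of the 13 alternatives tried.

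**Figure D2:**
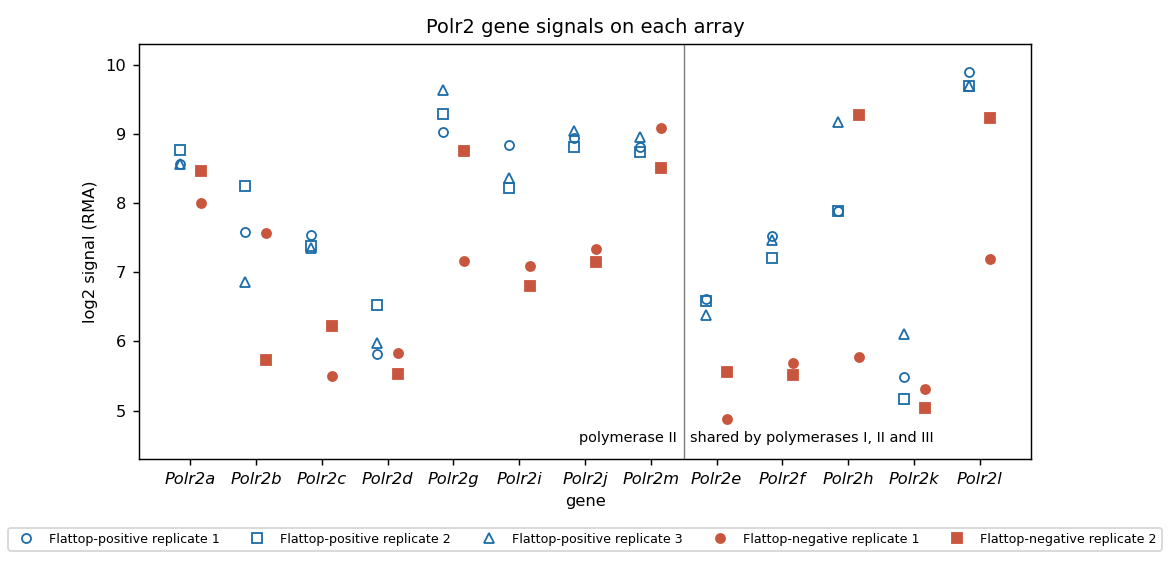
Log2 signal of the 13 Polr2 genes on each array, Flattop-positive pools as open symbols left of Flattop-negative pools as filled symbols; the symbol shape gives the replicate number. Polr2f, Polr2i and Polr2j have both Flattop-negative pools well below, Polr2b has only replicate 2 low, and Polr2h has only replicate 1 low.

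The 5 subunits shared by all 3 polymerases all had differences above 0, with a median of 1.31. This median was 0.55 and Polr2h turned to -0.96 with Flattop-negative replicate 1 left out, and with replicate 2 left out it stood at 1.71. Polr2f, a small subunit at the base of the clamp, was at 7.52, 7.20 and 7.47 in Flattop-positive pools against 5.69 and 5.51 in Flattop-negative pools, and the groups were far apart. The difference was 1.80 ± 0.20 (SE; limma adjusted p = 0.198), 3.48-fold, the largest of the 48 members, with a 95% interval of 1.29 to 2.30, and it ranked 9 of 19938 by p. Polr2e, which forms part of the jaw that grips the DNA, was at 6.62, 6.58 and 6.38 in Flattop-positive pools against 4.87 and 5.55 in Flattop-negative pools. Here too the groups were apart, with a difference of 1.31 ± 0.26 (SE; limma adjusted p = 0.214).

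For Polr2l and Polr2h a single Flattop-negative pool set the size of the difference. Polr2l, needed for assembly of the enzyme, was at 9.90, 9.70 and 9.70 in Flattop-positive pools against 7.20 and 9.23 in Flattop-negative pools, without overlap. The difference of 1.55 ± 0.59 (SE; limma adjusted p = 0.341) was 2.57 against Flattop-negative replicate 1 and 0.54 against replicate 2, and the gene's other probe set gave 1.95 ± 0.84 (SE) with the same pool low. Polr2h was at 7.89, 7.88 and 9.17 in Flattop-positive pools against 5.77 and 9.28 in Flattop-negative pools. That is 2.54 higher than Flattop-negative replicate 1 but -0.96 against replicate 2, and the mean difference was 0.79 ± 1.06 (SE; limma adjusted p = 0.731). Polr2k, a small zinc-binding subunit, overlapped between the groups, with 5.48, 5.17 and 6.10 in Flattop-positive pools against 5.31 and 5.04 in Flattop-negative pools and a difference of 0.41 ± 0.32 (SE; limma adjusted p = 0.571), which was 0.15 without Flattop-positive replicate 3. A brighter probe set that also lists a second gene, and was therefore not used, had 0.68 ± 0.84 (SE).

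Polymerase I was represented by 5 genes with a median of 0.85, and its members divided. The 3 genes not shared with polymerase III had a median of 0.145, near the 0.17 of the polymerase III class. The pair shared with polymerase III, which takes the place that Polr2c and Polr2j have in polymerase II, was higher in Flattop-positive pools in both partners. Polr1c was at 7.09, 7.37 and 7.47 there against 6.33 and 6.39 in Flattop-negative pools, a difference of 0.95 ± 0.21 (SE; limma adjusted p = 0.220). Polr1d was at 9.11, 9.12 and 8.70 in Flattop-positive pools against 8.05 and 7.47 in Flattop-negative pools, a difference of 1.22 ± 0.27 (SE; limma adjusted p = 0.221). Neither gene overlapped between the groups, and the other Polr1d probe set gave 1.44 ± 0.23 (SE).

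Polr1a, the catalytic subunit of polymerase I, was at 6.13, 5.94 and 5.62 in Flattop-positive pools against 5.12 and 4.96 in Flattop-negative pools, without overlap. Its difference was 0.85 ± 0.23 (SE; limma adjusted p = 0.260), 1.80-fold. Polr1b, which completes the active site with Polr1a, was level at 5.20, 5.34 and 5.04 in Flattop-positive pools against 5.21 and 5.33 in Flattop-negative pools. The difference of -0.08 ± 0.20 (SE; limma adjusted p = 0.865) had a 95% interval of -0.57 to 0.41. Polr1e, part of a dimer at the edge of the enzyme, had a difference of 0.14 ± 0.20 (SE) from values below the floor on 1 Flattop-positive and both Flattop-negative arrays, so its size is uncertain.

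Polymerase III had 9 genes and a median of 0.17. Polr3c, of the trimer that works in promoter opening, was at 6.23, 6.52 and 6.64 in Flattop-positive pools against 5.89 and 5.66 in Flattop-negative pools, and Polr3d, which acts in initiation and termination, at 6.50, 6.85 and 6.59 against 6.16 and 5.97. Neither pair of groups overlapped, and the differences were 0.69 ± 0.22 and 0.58 ± 0.21 (SE; limma adjusted p = 0.299 and 0.324). Both catalytic genes overlapped between the groups. Polr3a was at 6.09, 6.49 and 5.36 in Flattop-positive pools against 6.07 and 4.87 in Flattop-negative pools, with a difference of 0.51 ± 0.49 (SE; limma adjusted p = 0.629). Polr3b was at 5.82, 5.54 and 5.87 in Flattop-positive pools against 5.66 and 5.49 in Flattop-negative pools, with a difference of 0.17 ± 0.21 (SE; limma adjusted p = 0.712).

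Polr3k, a small subunit used in termination, was at 8.00, 7.82 and 8.45 in Flattop-positive pools against 8.35 and 6.47 in Flattop-negative pools. Only Flattop-negative replicate 2 lay apart, and the difference of 0.68 ± 0.57 (SE; limma adjusted p = 0.593) was 1.62 against that pool and -0.26 against replicate 1. The alternative subunits Polr3g and Polr3gl, of which an assembled enzyme holds either, were both near level. Polr3gl was at 6.25, 6.43 and 6.66 in Flattop-positive pools against 6.54 and 6.54 in Flattop-negative pools, a difference of -0.09 ± 0.21 (SE; limma adjusted p = 0.843). Polr3g had 0.10 ± 0.39 (SE), Polr3f of the same trimer 0.17 ± 0.48 and Polr3e, the partner of Polr3d, 0.16 ± 0.23. Both Polr3g and Polr3f lay below the floor on Flattop-negative replicate 2, so their sizes are uncertain. For Polr3e the other probe set gave -0.63 ± 0.43 (SE), so its direction is uncertain. Without Flattop-negative replicate 2 the median of the class was -0.086, and without replicate 1 it was 0.69, so the class had no direction that held against both pools.

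Among the TFII genes, 15 in all with a median of 0.33, 1 was called higher, Gtf2h5. That is 6.67%, against 8.08% of all genes. The median signal of the class was 6.64, and all genes at 6 to 7 had 15.7% called higher and a median of 0.295. The class median was 0.019 without Flattop-negative replicate 2, 0.035 on repeated quantile normalisation and -0.034 on cyclic loess. Gtf2h5, the smallest subunit of TFIIH, the factor that opens promoter DNA and also serves in nucleotide excision repair, was at 8.996, 8.89 and 9.14 in Flattop-positive pools against 8.15 and 7.24 in Flattop-negative pools. The groups were apart, with a difference of 1.31 ± 0.31 (SE; limma adjusted p = 0.239), 2.48-fold. The groups overlapped for the other TFIIH genes, where Gtf2h1 had -0.24 ± 0.39, Gtf2h3 0.67 ± 0.40 and Gtf2h4 -0.25 ± 0.28 (SE). Gtf2b, the single-chain factor that bridges the promoter and polymerase II, was at 8.86, 7.97 and 9.67 in Flattop-positive pools against 8.78 and 8.08 in Flattop-negative pools. Its Flattop-positive pools spread over more than the whole Flattop-negative range, and the difference was 0.40 ± 0.53 (SE; limma adjusted p = 0.731).

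The TFIIF gene Gtf2f1, whose product escorts the polymerase, was at 7.15, 6.74 and 7.43 in Flattop-positive pools against 6.18 and 6.84 in Flattop-negative pools, with a difference of 0.60 ± 0.32 (SE; limma adjusted p = 0.445), and its partner Gtf2f2 had 0.33 ± 0.27. In TFIIE, Gtf2e1 had -0.27 ± 0.29 and Gtf2e2 0.55 ± 0.55 (SE), and Gtf2e2 turned to -0.41 without Flattop-negative replicate 2. Neither TFIIA gene was called. Gtf2a1 was the lowest of the class, at 9.002, 9.12 and 9.14 in Flattop-positive pools against 9.20 and 9.71 in Flattop-negative pools, without overlap, with a difference of -0.36 ± 0.23 (SE; limma adjusted p = 0.496), while Gtf2a2 had 0.74 ± 0.44. The germ cell paralogue Gtf2a1l lay below the floor on all 5 arrays, so no size is given for it.

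Gtf2i, Gtf2ird1 and Gtf2ird2 carry the name but encode sequence-specific regulators outside the basal machinery. Gtf2i was at 8.52, 8.58 and 8.55 in Flattop-positive pools against 8.39 and 7.77 in Flattop-negative pools, without overlap, with a difference of 0.47 ± 0.24 (SE; limma adjusted p = 0.437). Gtf2ird1 was level, with -0.03 ± 0.18 (SE), and Gtf2ird2 lay below the floor on both Flattop-negative arrays.

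The 6 TFIII genes all had differences above 0, with a median of 0.60. It was 1.03 without Flattop-negative replicate 1, 0.26 without replicate 2, 0.34 on repeated quantile normalisation and 0.19 on cyclic loess. Gtf3c4, a TFIIIC subunit with acetyltransferase activity, was at 6.98, 7.07 and 6.51 in Flattop-positive pools against 5.73 and 5.89 in Flattop-negative pools. Both Flattop-negative pools lay below the others, and the difference was 1.05 ± 0.24 (SE; limma adjusted p = 0.236), 2.07-fold. Gtf3c1, the large subunit of TFIIIC that contacts the promoter, was at 7.20, 7.41 and 7.19 in Flattop-positive pools against 6.48 and 6.93 in Flattop-negative pools, with a difference of 0.56 ± 0.22 (SE; limma adjusted p = 0.359). Gtf3c6 was at 6.49, 6.35 and 6.65 in Flattop-positive pools against 6.17 and 5.001 in Flattop-negative pools, with a difference of 0.91 ± 0.37 (SE; limma adjusted p = 0.364). None of these groups overlapped, though for Gtf3c6 the gap rested on Flattop-negative replicate 2, with 1.496 against that pool and 0.33 against replicate 1.

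Gtf3c5 was the lowest of the TFIII class, at 6.50, 6.50 and 5.91 in Flattop-positive pools against 6.46 and 5.75 in Flattop-negative pools, with a difference of 0.20 ± 0.32 (SE; limma adjusted p = 0.776). Gtf3c3 had 0.51 ± 0.47 (SE) and was -0.30 without Flattop-negative replicate 2. Gtf3a, the factor for the smallest ribosomal RNA, had 0.64 ± 0.33 (SE) with overlapping groups. Of the probe sets that list Gtf3c2 together with a neighbouring symbol, one had 0.75 ± 0.28 (SE), and the other had -1.81 ± 0.95 with only Flattop-negative replicate 1 apart from the other arrays.

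The members varied among themselves mainly by which Flattop-negative pool was low. Against the range of the Flattop-positive pools, 18 members had both Flattop-negative pools below it, 37.5% against 13.7% of all genes. For 18 further members, 11 with replicate 1 within the range and 7 with replicate 1 above it, only replicate 2 was below, as in 2992 of all 19938 genes. For 5 members, 4 with replicate 2 within the range and 1 (Polr2h) with it above, only replicate 1 was below, as in 3097 of all genes. Replicate 2 was below the range for 75.0% of members and 28.7% of all genes, and replicate 1 for 47.9% and 29.3%. These shares over all genes are not matched to the members by signal. In polymerase III, 6 of 9 genes were low in replicate 2 alone, and in polymerase II 3 of 8.

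**Figure D3:**
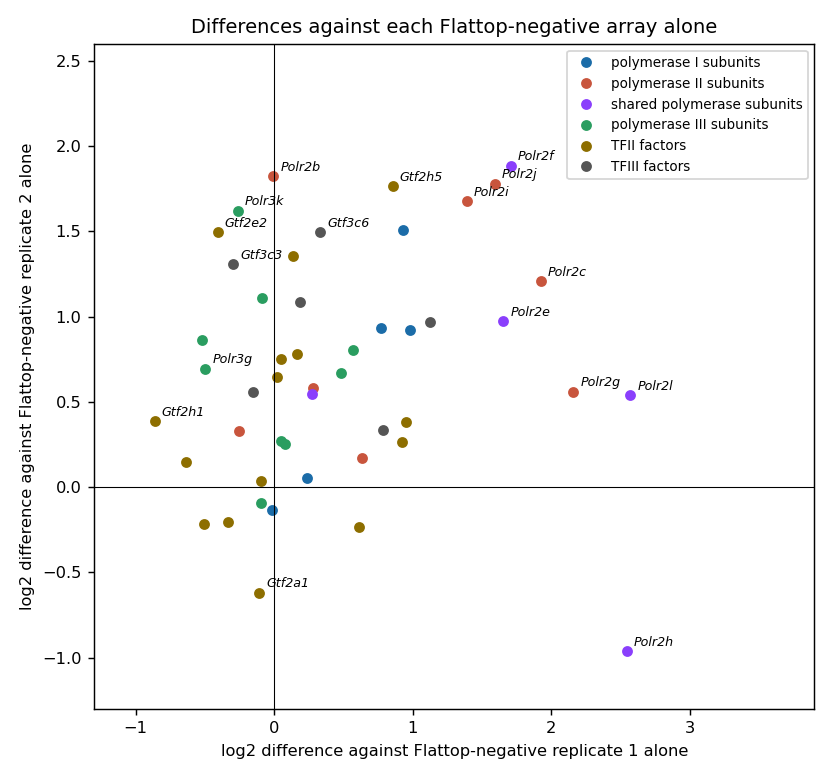
Difference of each of the 48 genes, in log2 units, with the Flattop-positive pools set against Flattop-negative replicate 1 alone (horizontal) and replicate 2 alone (vertical); both axes share the Flattop-positive arrays, and colours give the class. Polr2c, Polr2f, Polr2i and Polr2j lie above 1 on both axes, Polr2b, Polr3k and Gtf2e2 on the vertical one alone, and Polr2h, at 2.54 and -0.96, on opposite sides of 0.

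With Flattop-negative replicate 2 left out, 4 members passed an adjusted p of 0.05 in limma, 8.33% of them against 2.18% of all genes, with the lone remaining pool assumed to vary like the Flattop-positive pools. They were Polr2c, Polr2l, Polr2e and Polr2j, with differences of 1.93, 2.57, 1.65 and 1.59. For Polr2c this holds for the probe set kept, and the other was level over all arrays, at -0.02 ± 0.23 (SE). With Flattop-negative replicate 1 left out, 0 members passed in limma, and 22 were 1.5-fold higher or more with an unadjusted p below 0.05, against 12.2% of all genes and 13 members with all arrays. Polr2f, Polr2j and Polr2i kept differences of 1.07 to 1.89 under each of the 13 alternatives tried, other normalisations included.

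The differences of all genes grew with signal, so the members are set beside genes of like signal. Among genes with a mean signal of 6 to 7, the median difference was 0.64 over 16 members and 0.295 over all 3104 genes, and 6 of the 16 members were called higher (unadjusted p under 0.05 and 1.5-fold), against 15.7% of all genes. At 7 to 8 the medians were 0.68 over 7 members, of which 1 was called, and 0.34 over all genes, of which 20.9% were called. At 8 to 9 they were 0.84 over 8 members, of which 4 were called, and 0.45 over all genes, of which 25.3% were called. The 11 members at 5 to 6 had a median of 0.17 against -0.01 over all, with 1 called against 5.96%. Higher without overlap were 8 of the 16 members at 6 to 7, against 27.2% of all genes, and 2 of the 7 at 7 to 8, against 29.8%. At 8 to 9 these were 6 of 8 members, against 36.8%, and at 5 to 6 they were 1 of 11, against 13.7%. Counts this small give no measure of precision for the shares.

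**Figure D4:**
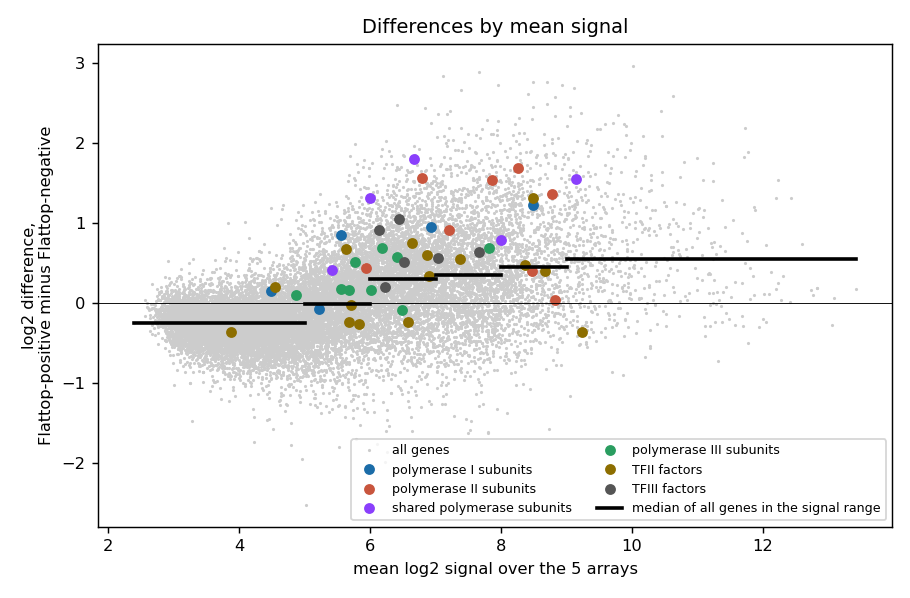
Log2 difference, Flattop-positive minus Flattop-negative, against the mean log2 signal over the 5 arrays, for all genes (grey) and the 48 members (coloured by class); black bars are the median of all genes in each signal range. The bars climb from -0.26 below a mean signal of 5 to 0.55 above 9, and Polr2f, at 1.80, lies far above the bar of its range.

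Genes with 2 single-symbol probe sets give a check within the arrays, with the errors of probe sets not kept taken from a fit over all probe sets. Both probe sets of Polr1d, and both of Polr2l, lay higher in Flattop-positive pools without overlap. For Polr2h both had Flattop-negative replicate 1 as the lowest value, and the one not kept had a difference of 0.48 ± 0.34 (SE), whereas those of Polr2c and Polr3e disagreed in direction. With the mean of a gene's probe sets in place of the brighter one, the Polr2c difference was 0.77 and the polymerase II median was 0.84.

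**Figure D5:**
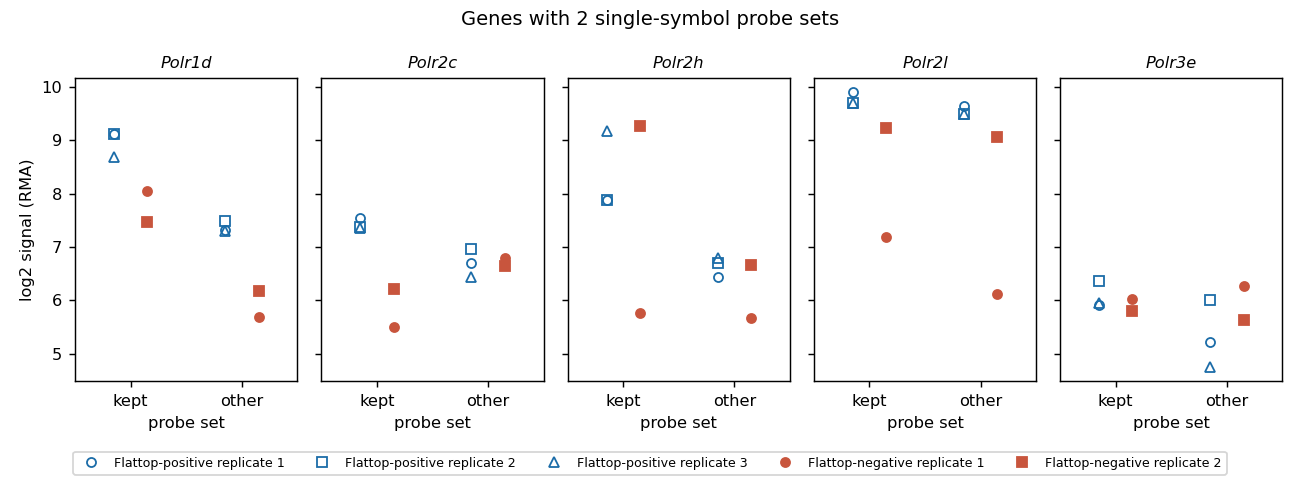
Log2 signal on each array for the 5 genes with 2 single-symbol probe sets, the kept one at left in each panel; Flattop-positive pools are open symbols left of the filled Flattop-negative symbols, and the shape gives the replicate number. In Polr2c the kept probe set has both Flattop-negative pools low and the other has them within the range of the Flattop-positive pools.

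The wider machinery was read from lists of genes with other symbols. Of 4 subunits under older names, Znrd1, which encodes a small polymerase I subunit, was at 7.98, 7.49 and 7.77 in Flattop-positive pools against 6.27 and 6.83 in Flattop-negative pools, without overlap, with a difference of 1.20 ± 0.27 (SE; limma adjusted p = 0.223). Crcp, of polymerase III, had 0.35 ± 0.25 (SE), and Cd3eap and Twistnb, of polymerase I, had 0.24 ± 0.19 and -0.14 ± 0.38. Mediator, the complex between activators and polymerase II, had 10 of 30 genes called higher by the rule above, 33.3% against 8.08% of all genes, and 0 called lower, with a median of 0.26. Its median signal was 6.73, and all genes at 6 to 7 had 15.7% called higher and a median of 0.295. Its clearest members were Med27 with 1.68 ± 0.22 and Med11 with 1.10 ± 0.19 (SE; limma adjusted p = 0.198 and 0.199), while Med13 of the kinase module had -0.49 ± 0.42 and Med18, from below the floor on all 5 arrays, is given no size.

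TFIID, which binds the core promoter, had a median of 0.06 over 17 genes, with 2 called higher by the same rule (11.8%; all genes 8.08%, and 15.7% at a mean signal of 6 to 7), Taf10 with 0.84 ± 0.22 and Taf6 with 0.89 ± 0.26 (SE), and 0 lower; the TATA-binding protein gene Tbp had -0.43 ± 0.26. The 5 TFIIH genes under other names had a median of 0.13 and 0 called in either direction, with Mnat1 at 0.64 ± 0.29 (SE). Of 7 polymerase I factors 1 was called higher (14.3%, against 15.7% of all genes at a mean signal of 6 to 7), Taf1a with 1.10 ± 0.20 (SE; limma adjusted p = 0.199), and 0 lower, with a median of 0.22. Among 9 polymerase III factors, with a median of 0.48, 2 were called higher (22.2%, against the same 15.7%), Brf1 with 0.64 ± 0.19 and Snapc5 with 0.72 ± 0.25 (SE), and 0 lower, while Bdp1 had -0.69 ± 0.39.

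Elongation genes had a median of 0.19. Of 29, 4 were called higher, 13.8% against 8.08% of all genes. The list had a median signal of 7.05, and of all genes at 7 to 8, 20.9% were called higher, with a median of 0.34. Among the 4 were Nelfe with 0.88 ± 0.22 and Supt5 with 0.86 ± 0.26 (SE). Another 1 of the 29 was called lower, 3.45% against 3.74%. That was Aff4, the scaffold of the super elongation complex, at 9.68, 9.51 and 9.30 in Flattop-positive pools against 10.65 and 10.17 in Flattop-negative pools, with a difference of -0.91 ± 0.24 (SE; limma adjusted p = 0.257). Ell2, of the same complex, had -0.61 ± 0.29 (SE). Of 12 genes for the chaperones and factors that assemble polymerases, 2 were called higher, 16.7% against 8.08% of all genes, and 0 lower, with a median of 0.39. Ruvbl2, a helicase of the assembly complex, had 0.96 ± 0.29 (SE), with 1 Flattop-negative pool below the floor. Pfdn6, a prefoldin subunit, was at 7.29, 7.29 and 7.27 in Flattop-positive pools against 5.81 and 5.71 in Flattop-negative pools, with a difference of 1.52 ± 0.18 (SE; limma adjusted p = 0.198).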

How the data were processed

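The values, deposited by the authors, are log2 signals per probe set from RMA. The submitters' processing notes name Affymetrix Expression Console, version 1.3.0.187. RNA was amplified before labelling, per the labels' protocols. The platform annotation gave 1 symbol to 21789 of 35556 probe sets, several to 1621, and left 12146 without a listed gene. Only single-symbol probe sets were used, the one with the highest mean for each gene, which left 19938 genes. The genome build was not given in the sources used here. Precision is limited by having 5 arrays.

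Groups were compared over all genes in limma 3.58.1 (R 4.3.3) with group as the only term, two-sided, with Benjamini-Hochberg adjustment; a gene was called higher or lower with an unadjusted p under 0.05 and a 1.5-fold difference. Nothing in the labels says more of the replicates than that they are pools, so p-values measure the spread between these pools. With 3 arrays against 2, exact permutation (one-sided) cannot give a p below 0.1 and was not used. The code was tested on simulated data. Values on every array are given for catalytic and shared subunits, Gtf2b and, in each class, the 3 members with the smallest p and the lowest one; from each wider list up to 2 genes per direction are named, by p. Promoters come from RefSeq. The members and lists were chosen with earlier results of these data known. Alternatives tried were a replicate block, leaving out each array, 3 normalisations, leaving out dim genes, the mean of probe sets, another variance model and array weights.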

Additional observations from a re-analysis of the deposited data

How the results depend on the processing

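The count of 13 members called higher was 10 to 22 with 1 array left out (all genes 4.66% to 12.6%), 9 after cyclic loess (3.84%), 10 on repeated quantile normalisation (4.54%) and 15 with arrays centred on their medians (9.54%). The count called lower was 0 to 2 with 1 array left out (all genes 1.34% to 11.0%), and 1 on cyclic loess (3.03%) and 1 on quantile normalisation (3.15%). Members past the adjusted threshold numbered 0 to 4 with 1 array left out and 0 under the other alternatives in limma, where 15 of 48 had an unadjusted p under 0.05. Without overlap, 20 to 36 were higher (all genes 15.6% to 29.3%) and 2 to 10 lower (23.6% to 40.9%) with 1 array left out. On quantile normalisation 12 were higher (13.1%) and on cyclic loess 12 (13.2%), and 1 was lower with arrays centred (16.1%) or dim genes left out (10.4%).

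Class medians with 1 array left out ran from 0.894 to 1.231 for polymerase II, 0.546 to 1.708 for shared subunits, -0.086 to 0.694 for polymerase III, 0.019 to 0.404 for TFII and 0.258 to 1.028 for TFIII. Cyclic loess gave 0.58 for polymerase I, 0.685 for polymerase II, 1.061 for shared subunits, -0.034 for TFII, with the sign turned, and 0.192 for TFIII. Repeated quantile normalisation gave 0.621 for polymerase I and 0.868 for polymerase II, and the mean of probe sets 0.841 for polymerase II.

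Replicate numbers recur in both groups, and deviations of same-numbered arrays from their group means correlated at 0.182 for replicate 1 and -0.137 for replicate 2 over genes. With only 2 Flattop-negative arrays their deviations mirror each other, so these values cannot decide whether same-numbered pools were paired. The labels do not say. With the replicate block, 12 members were called higher (all genes 6.98%) and 0 past the adjusted threshold, and the sign turned for Polr1b (0.001), Polr2m (-0.028) and Gtf2b (-0.021).

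The sign also turned on quantile normalisation for Polr2m (-0.337), Polr3e (-0.063) and Gtf3c5 (-0.035), with arrays centred for Gtf2ird1 (0.041), and with the mean of probe sets for Polr3e (-0.233). On cyclic loess it turned for Polr2a (-0.089), Polr2m (-0.459), Polr3e (-0.039), Gtf2b (-0.094), Gtf2f2 (-0.034), Gtf2i (-0.018) and Gtf3c5 (-0.048). With 1 array left out, differences on both sides of 0 were found for 17 members. In polymerases I and II these were Polr1b, from -0.151 to 0.001, Polr2b, from -0.007 to 1.825, Polr2m, from -0.254 to 0.327, and the shared Polr2h, from -0.963 to 2.544. In polymerase III they were Polr3a, from -0.086 to 1.111, Polr3f, from -0.52 to 0.865, Polr3g, from -0.498 to 0.694, Polr3gl, from -0.2 to 0.004, and Polr3k, from -0.262 to 1.623. Among factors they were Gtf2b, from -0.02 to 0.832, Gtf2e2, from -0.407 to 1.497, Gtf2h1, from -0.862 to 0.388, Gtf2h4, from -0.637 to 0.146, Gtf2ird1, from -0.093 to 0.034, Gtf2ird2, from -0.232 to 0.616, Gtf3c3, from -0.297 to 1.308, and Gtf3c5, from -0.152 to 0.556. The cause was not tested. Genes near the floor, Polr1e, Gtf2a1l and Gtf2ird2 among the members, have no reliable size. Those of Polr3f and Polr3g, below the floor on Flattop-negative replicate 2 only, are uncertain.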
